A study of Mus musculus with 4 samples.

Results

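The genes described here are the mouse translation initiation factors, chosen by name: every protein-coding row whose symbol begins with Eif followed by a digit from 1 to 6, leaving out the eIF2 kinases (Eif2ak) and the eIF4E-binding proteins (Eif4ebp). The rule used no measured value, and it found 48 genes among the 53465 rows of the deposited table. Of these, 47 had enough counts to be tested. The 48th, Eif4e1b, an eIF4E relative known from oocytes, had 0 counts in each of the 4 libraries, which allows at most 0.231 CPM (counts scaled to a fixed library size) in the shallowest of them.

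Splenic CD8+ T cells of mice were isolated, cultured for 24 h with beads carrying antibodies to CD3 and CD28, which stand in for antigen and co-stimulation, and their RNA was sequenced. One genotype is wild type (WT) and the other lacks PP2Cm (PP2Cm-/-, labelled PP2Cm KO), the mitochondrial phosphatase encoded by Ppm1k that switches on branched-chain amino acid breakdown, with 2 biological replicates of each. Both genotypes received the same stimulation, and the labels used here name no unstimulated sample, strain, age or deletion design. The comparison asks which transcripts differ between PP2Cm KO and WT cells.

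The labels conflict. The genotype field and title call 2 libraries WT and 2 KO, whereas the short codes that name the table's columns call the same libraries by the opposite genotype. Ppm1k, the targeted gene, had 102 and 94 counts under the label WT and 157 and 206 under the label KO, so it was not lower in the latter (log2 fold change 0.97, SE 0.23, adjusted p = 0.186 by edgeR's quasi-likelihood test). The sources used here do not say which part of the gene was removed, so these counts do not settle the matter. Groups below follow the genotype field and are written as libraries labelled KO or labelled WT; if the column codes are right, every sign below turns. Where values are given as a pair against a pair, replicates 1 and 2 labelled WT come before the word against, and replicates 1 and 2 labelled KO after it.

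Initiation begins when eIF2, bound to GTP, brings the initiator methionyl-tRNA to the small ribosomal subunit, where eIF1, eIF1A, eIF3 and eIF5 join it. The cap-binding complex eIF4F, made of eIF4E, the helicase eIF4A and the scaffold eIF4G, loads this assembly onto a messenger RNA, and it scans for a start codon. eIF5 then prompts eIF2 to hydrolyse its GTP, eIF5B joins the large subunit, and eIF2B recharges eIF2. Resting T cells make little protein and raise protein synthesis strongly once stimulated.

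The 4 libraries held between 12967251 and 17316284 counts, and the members took 1.59% and 1.69% of them against 1.76% and 1.78%, so the share was highest in the libraries labelled KO. Replicates varied beyond counting noise, with a biological coefficient of variation of 15.9%. CD8 T cell markers summed to between 1793 and 2119 CPM (6 of 6 genes found), whereas the CD4, B cell, myeloid, dendritic, NK and erythroid or platelet lists each summed to at most 22.05 CPM in any library. S100a9, Alas2, Col3a1 and Cdh5 had 0 counts in the 4 libraries. In such bulk samples, fewer cells of a type and less RNA per cell cannot be told apart.

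Eif5 was the 1 member that passed the test. Its gene lies on chromosome 12 (GRCm38, chr12:111538016-111546752, plus strand). The 165 bases just upstream of its first annotated exon base (RefSeq promoter table, GRCm38.p6, chr12:111537851-111538015, plus strand) are shown because this is the start of the gene that the comparison turns on:
Eif5 upstream: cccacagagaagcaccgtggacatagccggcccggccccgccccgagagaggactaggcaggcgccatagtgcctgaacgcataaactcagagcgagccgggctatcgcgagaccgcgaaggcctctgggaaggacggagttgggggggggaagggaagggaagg
These bases are 66.7% G or C, and none is in capitals because the one motif searched in the promoters, described further on, does not occur in them.

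Eif5 had 2403 and 3547 counts under the label WT and 5595 and 5738 under the label KO. Scaled for library size, these were 184 and 209 CPM against 420 and 397 CPM. The 2 libraries labelled KO both exceeded the 2 labelled WT, and the gap between the labels was far wider than the gap within either. The means were 196 ± 17.1 CPM (SD, n = 2) and 408 ± 16.6 CPM (SD, n = 2), a 2.08-fold difference with 95% limits of 1.72 and 2.51. On the log2 scale the change was 1.06 (SE 0.11), with an adjusted p of 0.0352 by edgeR's quasi-likelihood test and of 2.84e-11 by DESeq2.

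Among all 13528 genes tested, edgeR called 0.207% (28 genes, of which 14, or 0.103%, were higher), against 1 of 47 members. By DESeq2 2.04% of genes were called, 0.665% as higher, and again Eif5 was the 1 member. Eif5 ranked 15th of all genes by p and the 8th among those with a higher value under the label KO, and 172 genes (1.27%) had a larger log2 fold change. The call depended on the replicates: without replicate 2 of the label KO the log2 fold change was 1.10 but the adjusted p was 0.155. With limma on the deposited FPKM values it was 1.01 with an adjusted p of 0.0809, on the log2(FPKM + 1) scale.

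The size of the Eif5 difference was also visible between single libraries. Replicate 2 differed from replicate 1 by 0.18 (log2) within the label WT and by -0.08 within the label KO. The 4 differences across labels were 1.19, 1.10, 1.01 and 0.93, so the smallest of them was several times the largest within a label.

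Other features at the Eif5 locus were looked at next. Snora28, a small nucleolar RNA of 127 bases, had 1 count in each library. It lies on the same strand within the exons of Eif5 when these are merged over all annotated transcripts, retained-intron ones included. The 3 pseudogene copies of Eif5 held 25 counts in all, 0.145% of those on Eif5, and adding them left the log2 fold change at 1.05 (adjusted p = 0.0358). Of the other 7 genes tested within 200 kb, none was called. Their log2 fold changes ran from -0.85 (Tnfaip2, SE 0.53, adjusted p = 0.562 by edgeR) to 0.66 (Cdc42bpb, SE 0.27, adjusted p = 0.382 by edgeR), and that of Mark3, a kinase gene and the next one downstream among those tested, was 0.23 (SE 0.13). The annotation lists 17 transcripts of Eif5, 7 of them coding, 7 with a retained intron and 3 marked for nonsense-mediated decay. The table holds 1 value per gene, so which of them differed was not analysed here.

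A list of 5 activation genes had a higher sum under the label KO, as Eif5 did. Il2ra, Cd69, Tfrc, Mki67 and Myc together summed to 2558 and 2264 against 3020 and 3192 CPM. Il2ra, the high-affinity interleukin 2 receptor chain, had 522 and 507 CPM against 982 and 936 CPM. It made up much of the gap in the sum, so the sum does not show that each gene of the list was higher. Cd69, Tfrc and Myc were not looked at singly. Mki67, a proliferation marker, had 852 and 711 against 756 and 796 CPM, so its labels overlapped. Pecam1, an adhesion gene of endothelium and leukocytes and nearly all of the stromal and endothelial list, went the other way, with 37.0 and 30.6 CPM against 18.02 and 18.6 CPM. The part that activation state or cell make-up has in the Eif5 difference was not tested.

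eIF5 acts on the start codon together with eIF1, eIF1A and eIF2, and with eIF5B afterwards, so its transcript was set beside theirs. Dividing the Eif5 count by the Eif1 count in the same library gave 1.06 and 0.893 against 1.86 and 1.81. These count ratios are not corrected for transcript length and can be compared between libraries only. eIF1 guards against initiation at wrong codons, and eIF5 relaxes that guard. Over the subunit gene of eIF2 that is phosphorylated under stress, Eif2s1, the Eif5 ratio was 0.730 and 0.770 against 1.44 and 1.32. Over Bzw1, an eIF5-mimic protein that competes for eIF2, it was 0.433 and 0.448 against 0.833 and 0.843. Over the 11 partner genes examined, the mean ratio was between 1.72 (Eif5b) and 2.14 (Eif3c) times higher in the libraries labelled KO, because the partners differed by much less than Eif5 did.

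**Figure D1:**
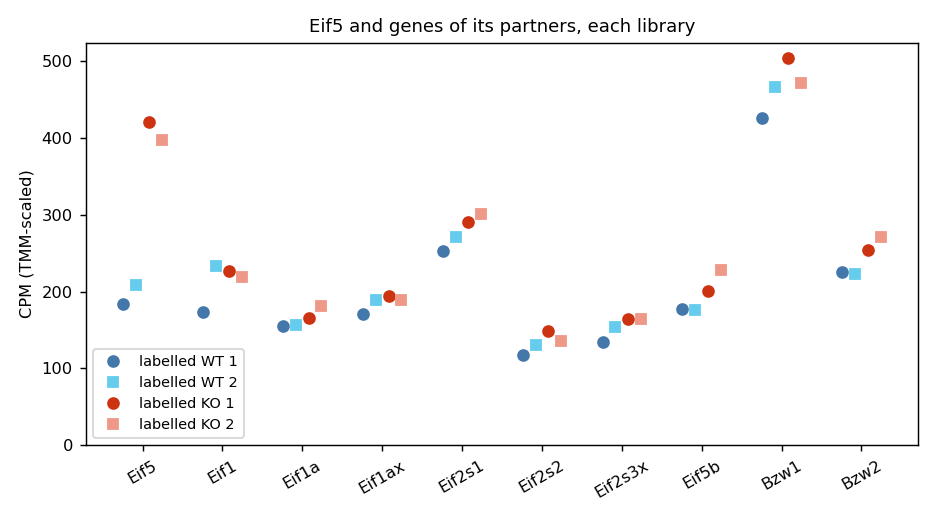
CPM (vertical axis, from 0) of Eif5, 7 genes of its initiation partners and the 2 eIF5-mimic genes Bzw1 and Bzw2 (horizontal axis); each point is 1 library, blue for labelled WT and red for labelled KO. Eif5 sits at 184 and 209 CPM (labelled WT) and at 420 and 397 CPM (labelled KO), a wider gap than for the other 9 genes.

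The start-codon guards eIF1 and eIF1A are encoded by 5 members, and none passed the test. Eif1 had 174 and 234 against 226 and 219 CPM, so the labels overlapped (log2 fold change 0.13, 95% limits -0.23 and 0.49). Eif1b, its close relative, had 50.3 and 49.97 against 55.1 and 53.3 CPM. For the eIF1A pair, which extends into the decoding site, Eif1a had 155 and 156 against 165 and 181 CPM, and X-linked Eif1ax had 171 and 188.8 against 194 and 189.3 CPM. Eif1ad, a member by its name whose product contains an eIF1A-like domain, had 118 and 147 against 152 and 158 CPM. The 5 log2 fold changes were all positive, between 0.09 and 0.22, and for 4 of them the libraries labelled KO lay above without overlap, which held for 21.5% of all genes tested. Eif1ad shares 428 exon bases with Banf1 on the opposite strand; the library kit keeps strand, but the sources used here do not say whether the counting used it. In all, 9 members share exon bases with a gene on the same strand and 11 with one on the opposite strand, and their counts are uncertain to that extent.

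eIF2 carries the initiator tRNA, and none of the genes of its 3 subunits was called. Eif2s1 (alpha) had 253 and 271 against 291 and 301 CPM. Eif2s2 (beta) had 118 and 131 against 148 and 135 CPM, and Eif2s3x (gamma, X-linked) 135 and 154 against 164 and 165 CPM. In each of the 3 the libraries labelled KO were the higher ones, which held for 21.5% of all genes tested. The log2 fold changes of 0.18, 0.19 and 0.19 had 95% limits that reached below 0. With the counts of pseudogene copies added, described further on, the value for Eif2s3x was 0.11 and that for Eif2s2 0.22. Eif2s3y, the Y-linked gamma copy, was counted in the 4 libraries (584, 752, 540 and 797 counts) and its labels overlapped.

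eIF2B, the 5-subunit exchange factor that recharges eIF2 and stalls when eIF2 is phosphorylated, showed no called gene. Eif2b5, the catalytic epsilon subunit, had 197 and 228 against 232 and 213 CPM. Eif2b3 had 53.6 and 51.6 against 62.8 and 58.1 CPM, whereas Eif2b2 had 63.0 and 70.7 against 62.0 and 51.4 CPM. The labels of these 2 subunit genes did not overlap, in opposite directions (log2 fold changes 0.20 and -0.24, each with limits on both sides of 0). Of all genes tested, 21.5% lay above and 23.3% below in this way. Eif2b1 and Eif2b4 had log2 fold changes of 0.07 and 0.21, and their labels overlapped, as did those of Eif2b5. The remaining members that deal with initiator tRNA outside the eIF2 route, Eif2a and Eif2d, had log2 fold changes of -0.03 and -0.11.

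eIF3, the largest factor, is a scaffold of many subunits on the small ribosomal subunit and was represented by 14 genes. Their log2 fold changes were positive for 7 and negative for 7, the median being 0.01, and none was called. The lowest p-values belonged to the gene pair for eIF3j, a loosely bound subunit that sits near the decoding site. Eif3j2 had 39.8 and 44.0 against 55.6 and 59.0 CPM (log2 fold change 0.45, SE 0.14, adjusted p = 0.265 by edgeR). Eif3j1 had 117 and 133 against 151 and 163 CPM (log2 fold change 0.33, SE 0.12, adjusted p = 0.306 by edgeR). For both the labels did not overlap. The pair are close relatives between which reads may be split, and Eif3j1 shares 1107 exon bases with Spg11 on the opposite strand.

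Other eIF3 subunit genes lay on both sides. Eif3a, which encodes the largest subunit, had 763 and 777 against 914 and 924 CPM (log2 fold change 0.25, 95% limits -0.01 and 0.52). Eif3h, another subunit, had 408 and 420 against 379 and 356 CPM (log2 fold change -0.17, 95% limits -0.42 and 0.08). Eif3b, the beta-propeller subunit, had 910 and 1050 against 1092 and 985 CPM and overlapped. Eif3g, an RNA-binding subunit, had 154 and 191 against 211 and 185 CPM and overlapped too. Thus Eif3a and the Eif3j pair lay above, Eif3f and Eif3h below, and the labels of the other 9 subunit genes overlapped. Of all genes tested, 21.5% lay above and 23.3% below in this way, so the split does not set eIF3 apart.

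Levels were compared between genes as CPM per kilobase of merged exons. On this scale the mean over the 4 libraries was highest for Eif3b (302), followed by Eif3c (265) and Eif3h (242), and lowest for Eif3j1 (24.2) and Eif3j2 (20.8). The genes of 1 complex thus had transcript levels that spanned more than 10-fold, and the order at the ends did not change with the library. That span is between genes and not between subunits, because Eif3j1 and Eif3j2 both encode eIF3j and reads may be split between them. Apart from the Eif3j pair, the lowest was Eif3e (40.6). In the middle, Eif3a, Eif3g, Eif3d, Eif3i and Eif3k lay between 81.6 and 96.7 and their libraries overlapped.

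**Figure D2:**
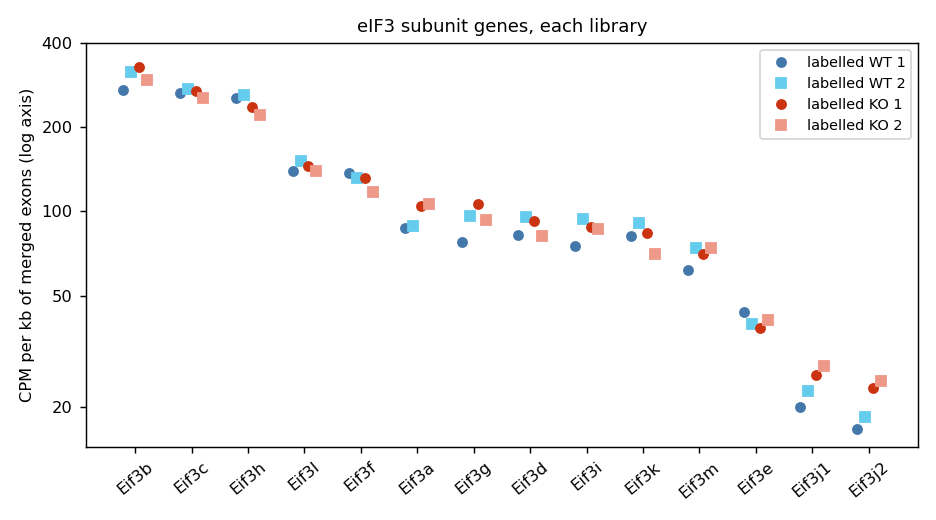
Level of the 14 eIF3 subunit genes as CPM per kilobase of merged exons (log axis), ordered by their mean; each point is 1 library. Means run from 302 for Eif3b to 20.8 for Eif3j2, and Eif3a, Eif3j1 and Eif3j2 show both red points (labelled KO) above both blue ones (labelled WT).

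The cap-binding complex eIF4F was also without a called gene. Eif4e, which encodes the cap-binding protein, had 140 and 171 against 192 and 195 CPM (log2 fold change 0.31, SE 0.13, adjusted p = 0.374 by edgeR). Its relative Eif4e2, which binds caps but represses, had 138 and 153 against 161 and 128 CPM, and Eif4e3 12.5 and 12.9 against 12.5 and 9.75 CPM, so both overlapped. Eif4enif1, which carries eIF4E into the nucleus, had 321 and 284 against 353 and 317 CPM.

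None of the 3 scaffold genes was called. Eif4g1 had 1029 and 1306 against 1247 and 1394 CPM, and overlapped. Eif4g2, a relative that lacks the eIF4E-binding part, had 1343 and 1317 against 1442 and 1583 CPM, and Eif4g3 176 and 155 against 184 and 193 CPM. The log2 fold changes were 0.18, 0.19 and 0.19, each with 95% limits on both sides of 0. They came apart when 1 library was left out: 0.02, 0.20 and 0.29 without replicate 1 labelled WT, and 0.36, 0.17 and 0.10 without replicate 2 labelled WT. Eif4b, a helper of the helicase, had 1173 and 1130 against 1186 and 1068 CPM (log2 fold change -0.03).

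By their own rows, the helicase genes Eif4a1 and Eif4a2 lay higher in both libraries labelled KO, as did 21.5% of all genes tested. Neither passed the test. Eif4a1 had 380 and 464 against 518 and 488 CPM (log2 fold change 0.25, 95% limits -0.06 and 0.56). Eif4a2, its close paralogue, had 158 and 135 against 171 and 215 CPM (log2 fold change 0.40, SE 0.15, adjusted p = 0.333 by edgeR). Eif4a3, which serves in the exon junction complex, had 227 and 268 against 273 and 252 CPM and overlapped.

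Most Eif4a1-like counts were listed on another row. Eif4a-ps4, a processed pseudogene on chromosome 1 (GRCm38, chr1:60703932-60705149, plus strand), matches the Eif4a1 coding sequence over its 1218 bases with 1 difference, G534A, with positions counted from 1 at the first base of the Eif4a1 start codon. A 60-base stretch around it is shown because it holds the 1 matched base by which a read could be told to come from either; the capital marks it:
Eif4a1: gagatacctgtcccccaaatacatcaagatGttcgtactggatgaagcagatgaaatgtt
Eif4a-ps4: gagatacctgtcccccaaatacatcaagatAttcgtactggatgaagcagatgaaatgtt
These are bases 504 to 563 of the coding sequence. Eif4a-ps4 held 18730 and 29138 against 21783 and 24059 counts, and Eif4a1 held 4957 and 7886 against 6893 and 7056. The pseudogene row therefore carried 79.1%, 78.7%, 76.0% and 77.3% of the pair, in each library more than 3 times the count on its parent. Its own log2 fold change was 0.07, with 1437 and 1713 against 1636 and 1663 CPM. The labels thus overlapped on the pseudogene row, unlike on the Eif4a1 row. With the copies added to the parent, the log2 fold change of Eif4a1 went from 0.25 to 0.11. The sum does not depend on how reads were split between the rows.

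A search of the annotated pseudogenes for copies of the members found 54 of them (at least 90% identity over at least 150 bases), belonging to 21 members, and 43 had a count. For 6 members the copies held more than 10% of the parent's count. After Eif4a1 these were Eif2s3x, whose copy Gm2223 held 109% of its count, Eif2s2 with 74.5%, Eif1 with 50.7% over 18 copies, Eif4e with 21.4% and Eif3m with 20.2%. The share of the summed counts on copies varied by a few percent points between the 4 libraries. For Eif1 it was 35.7% and 32.6% against 33.2% and 33.8%, and the labels overlapped, as for Eif2s2 and Eif4e. For Eif4a1 with all its copies it was 79.2% and 78.8% against 76.1% and 77.4%. For Eif2s3x it was 54.96% and 52.5% against 50.1% and 51.8%. In both of these, and in Eif3m, the share was lower in the libraries labelled KO. How reads were divided between these 6 genes and their copies was not stated, so the levels given for the 6 are uncertain. With copies added the members' median log2 fold change was 0.11, as without.

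**Figure D3:**
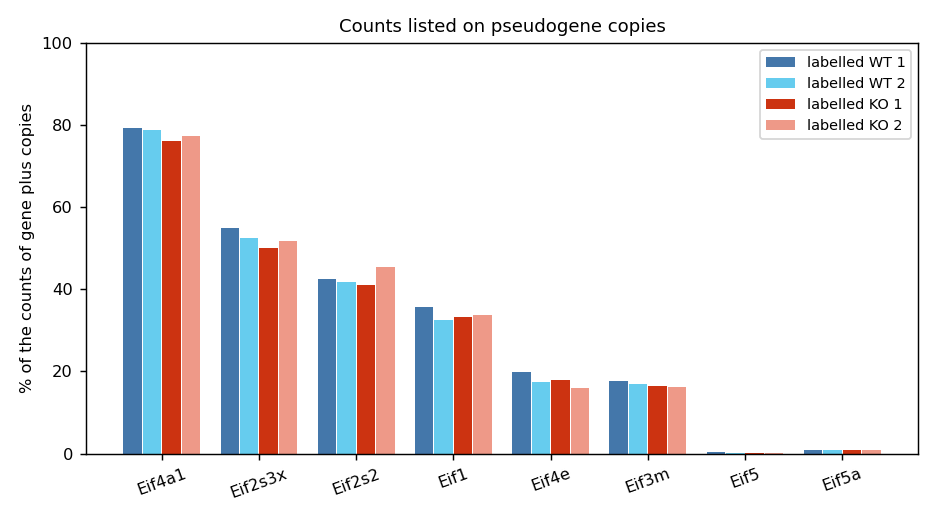
Percent of the summed counts of a gene and its pseudogene copies that is listed on the copies (vertical axis, 0 to 100), for 8 members; each bar is 1 library. Eif4a1 stands at 76.1% to 79.2% with its 3 copies, while Eif5 and Eif5a stay under 1%.

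Of the factors that act late, Eif5b and Eif5a2 lay higher in both libraries labelled KO, as did 21.5% of all genes tested. Eif5b, the GTPase that joins the subunits, had 177 and 176 against 201 and 228 CPM (log2 fold change 0.28, SE 0.11, adjusted p = 0.361 by edgeR); it shares 1643 exon bases with Rev1 on the opposite strand. Eif6, which keeps the large subunit from joining too early, had 182 and 235 against 261 and 221 CPM and overlapped. Eif5a, the hypusine-bearing factor that also helps elongation at difficult peptides, had 2305 and 2644 against 2460 and 2482 CPM. By the members' own rows it had the highest level, with a mean of 1040 CPM per kilobase. The Eif4a-ps4 row, which may hold Eif4a1 reads, had a mean of 1324, so the order of Eif5a and Eif4a1 is uncertain. The log2 fold change of Eif5a was 0.00 (95% limits -0.34 and 0.33), which leaves room for a 1.26-fold difference. Eif5a2 had 17.7 and 19.7 against 20.1 and 22.9 CPM.

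Paralogues were present in different proportions, by the deposited FPKM (fragments per kilobase of gene length, scaled to library size), and no test was run on the shares. Eif5a2 made up on average 0.685% ± 0.0152 (SD, n = 2) of the Eif5a pair under the label WT and 0.787% ± 0.0659 (SD, n = 2) under the label KO. Eif4e3 made up 11.6% ± 0.945 (SD, n = 2) and 9.13% ± 1.04 (SD, n = 2) of Eif4e, Eif4e2 and Eif4e3, while its own CPM overlapped between the labels. Eif3j2 made up 45.8% ± 0.501 (SD, n = 2) and 47.9% ± 0.284 (SD, n = 2) of its pair. Eif1ax made up 49.6% and 48.6%, and Eif4g2 48.4% in both. For the Eif4a pair the share of Eif4a2 was 19.4% and 14.4% against 16.04% and 20.4%. Pseudogene rows were left out of all these shares, those matching Eif4a1 and Eif4e included.

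Over the 47 members tested, 33 (70.2%) had a positive log2 fold change, against 48.1% of all genes tested. The median was 0.11, against -0.01 for all genes, and the quartiles of the members were -0.02 and 0.20. For 19 members (40.4%), each by its own row, the 2 libraries labelled KO both exceeded the 2 labelled WT, which held for 21.5% of all genes. For 4 members (8.51%) both libraries labelled KO lay below, against 23.3%. An unadjusted p under 0.05 was found for 6 members on the higher side (12.8%, against 5.7% of all genes) and for 0 on the lower side (against 7.23%). The 95% limits stayed within a 1.5-fold difference either way for 38 members (80.9%), against 43.8% of all genes.

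**Figure D4:**
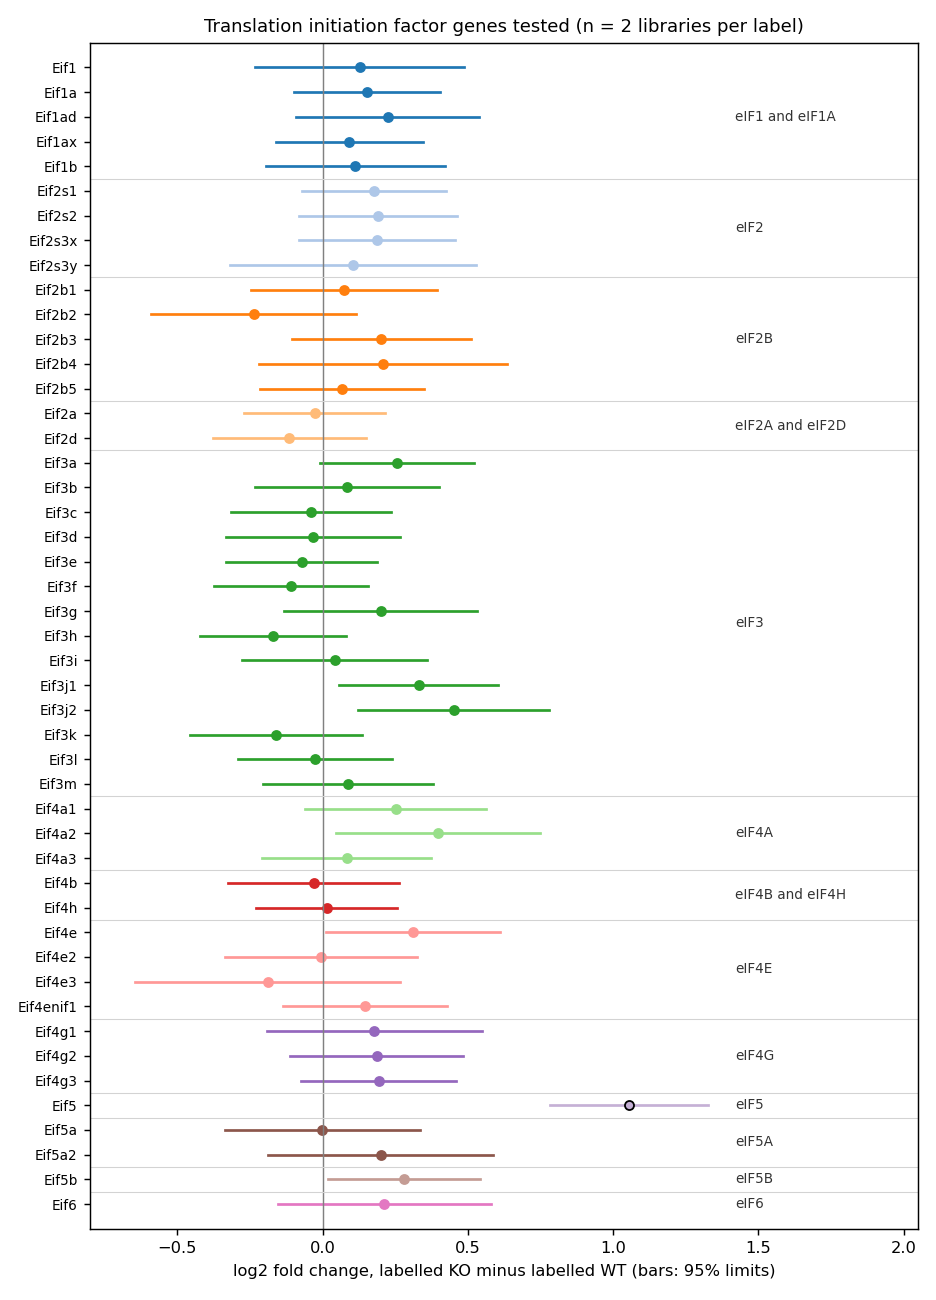
Log2 fold change, labelled KO minus labelled WT, of the 47 members tested (points) with 95% limits (bars), grouped by factor; the black outline marks an adjusted p under 0.05. Eif5 stands alone at 1.06, and the other 46 lie between -0.24 and 0.45.

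That small shift rested on 1 library. Without replicate 1 of the label WT the members' median was 0.02 and 28 of 47 were positive. This library differed from its own replicate by about as much as from the libraries labelled KO: the members' median log2 difference was 0.15 from replicate 1 to replicate 2 within the label WT, and 0.18 and 0.20 from that replicate 1 to the 2 libraries labelled KO. From replicate 2 of the label WT to the libraries labelled KO it was 0.05 and 0.00. Eif5 kept a log2 fold change of 0.98 (adjusted p = 0.0141 by edgeR) without that library.

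**Figure D5:**
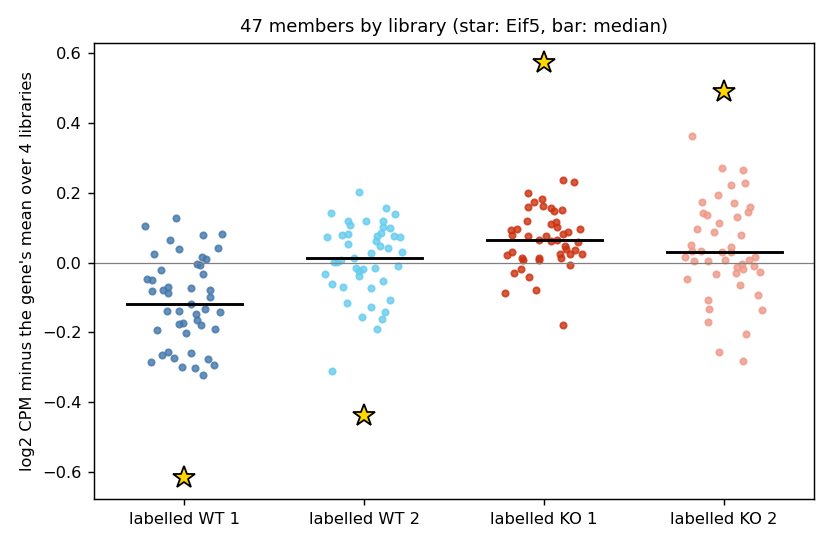
Log2 CPM of each member minus its own mean over the 4 libraries (vertical axis), by library; the black bar is the median of the 47 members and the star is Eif5. The median is -0.12 in replicate 1 labelled WT, 0.01 in replicate 2 labelled WT and 0.06 and 0.03 in the libraries labelled KO, while Eif5 is at -0.62 and -0.44 against 0.57 and 0.49.

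The other genes of the pathway were followed through a list of 46 translation factors and regulators that are no members, of which 43 were tested. None was called by edgeR or DESeq2, against 0.207% and 2.04% of all genes. At an unadjusted edgeR p under 0.05 there were 4 on the higher side (9.3%, against 5.7% of all genes). On the lower side there was 1 (2.33%, against 7.23%). The list's median log2 fold change was 0.04, with 24 positive and 19 negative. The 8 genes with the lowest p fell under several roles.

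Among those that act at the start site, Ddx3x, an RNA helicase for structured leaders, had 580 and 628 against 775 and 797 CPM (log2 fold change 0.38, adjusted p = 0.256 by edgeR). Bzw2, an eIF5-mimic protein, had 226 and 223 against 254 and 271 CPM. Eef1e1, which belongs to the aminoacyl-tRNA synthetase complex, had 78.4 and 92.5 against 119 and 116 CPM (log2 fold change 0.46, adjusted p = 0.222 by edgeR). Etf1, the release factor that reads stop codons, had 481 and 502 against 598 and 632 CPM. In each of these 4 genes the lower library labelled KO exceeded the higher one labelled WT, without passing the test. That held for 13 (30.2%) of the 43 genes of the list tested and for 21.5% of all genes tested. The 4 genes were picked for a low p, which favours such a gap.

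Genes that control eIF2 phosphorylation went both ways. Eif2ak3, the eIF2 kinase of endoplasmic reticulum stress (PERK), had 47.5 and 38.2 against 29.1 and 33.2 CPM. Ppp1r15a, the stress-induced subunit that removes the phosphate, had 41.7 and 42.1 against 35.5 and 21.5 CPM. Impact, which restrains the amino acid-sensing kinase GCN2, had 17.9 and 16.7 against 22.3 and 24.8 CPM. Their log2 fold changes were -0.46, -0.56 and 0.45, and none passed the test. Paip2, which holds back poly(A)-binding protein, had 95.8 CPM in replicate 1 labelled WT and between 47.5 and 53.4 CPM in the other 3 libraries.

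The elongation genes of the list had the opposite sign to most members. Of 7 tested, 6 had negative log2 fold changes, the exception being Eef1e1 (0.46), and the median of these 7 was -0.08. For 4 of them, Eef1a1, Eef1b2, Eef1g and Eef2, the labels did not overlap, with KO the lower, which held for 23.3% of all genes tested, and none of them was called.

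Promoters were searched for CACGTG, the E-box that MYC and its partners are known to bind, which reads the same on both strands. RefSeq promoter sequences (250 bases before to 50 after a listed start, GRCm38.p6) matched 38 of the 48 members. A gene could have more than 1 start (50 promoters for the 38 members) and was counted if any of its promoters held the motif. By this count 10 of the 38 (26.3%) held it, against 12.1% of the genes tested and 8.09% of all genes with a promoter in that table. The windows below are shown because they place the motif in cap-binding complex genes, in Eif5a and in Eif3f, an eIF3 subunit gene. Eif5a had the highest level by the members' own rows. The capitals mark the motif:
Eif4e, chr3:138527192-138527221, plus strand: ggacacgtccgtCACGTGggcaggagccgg
Eif4g1, chr16:20672661-20672690, plus strand: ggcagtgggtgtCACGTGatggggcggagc
Eif4a1, chr11:69672595-69672624, minus strand: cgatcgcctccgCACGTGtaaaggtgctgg
Eif5a, chr11:69921443-69921472, minus strand: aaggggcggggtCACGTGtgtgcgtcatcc
Eif3f, chr7:108934335-108934364, plus strand: caagatatgattCACGTGgtataaatttag
The windows of Eif4e, Eif4g1 and Eif5a precede a later listed start and lie downstream of the gene's first annotated base. A match describes these letters and is not a measured binding site. The 10 members with the motif had a median log2 fold change of 0.14 and the 28 without it one of 0.10. Eif5, the 1 member called, was among those without it.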

How the data were processed

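The table used here gives, for each gene, whole-number counts and FPKM values that the authors deposited, per the file headers. The submitters' processing notes name kallisto and the build GRCm38, without versions; settings and use of strand were not stated. The FPKM were the count divided by library size and by a fixed gene length (range at most 0.0018%); that length exceeded the merged exons of GENCODE M21 in 39 of 47 members, so levels between genes are CPM per kilobase of merged exons. Another 8 value columns of the table match none of the samples and were not used.

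Counts were tested with edgeR 4.0.16 in R 4.3.3 (filterByExpr by label, TMM scaling, quasi-likelihood F test, Benjamini-Hochberg over 13528 genes, threshold 0.05). The test was also run on simulated counts in which each gene had the same dispersion. It called 69.9% of the 103 genes simulated with a log2 change of 1 either way. Real genes differ in dispersion, so that share need not hold for these libraries. Alternatives were RLE scaling, no filter, DESeq2 1.42.0, the replicate number as a block, limma 3.58.1 on log2(FPKM + 1) and log2(FPKM + 0.1), and leaving out each library; added after seeing the data were a crossed pairing, pseudogene copies added to their parent, and shares per kilobase. Copies were found with blastn 2.17.0. The labels call the 2 libraries of a group biological replicates and do not say that equal numbers share an animal or day. They do not say whether replicates are separate animals, so p-values measure the spread between these samples. The members and lists were chosen with earlier results of these data known. Values in each library are given for members called, the 20 with the lowest p, the most abundant of each factor and the paralogues, and for the 8 pathway genes with the lowest p; the locus neighbours, Snora28, pseudogenes, single markers, Bzw1 and the elongation factors named were chosen after their values were seen. Counting intervals cover counting error only.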

Additional observations from a re-analysis of the deposited data

How the results depend on the processing

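With log2 values throughout, Eif5 stayed between 0.98 and 1.15 under each alternative run, but limma called 0 members on log2(FPKM + 1) and 0 on log2(FPKM + 0.1) (Eif5 adjusted p 0.0809 and 0.0811), and leaving out 1 library gave 0 to 1 (0 without replicate 2 labelled KO). When 1 library is left out, the lone one is assumed to vary like the other label. The count over all genes was 28, and it was 146 without the filter, 276 by DESeq2, 5 and 4 by limma and 3 to 266 with 1 library left out; the cause was not tested. The members' median was 0.0211 to 0.178 with 1 library left out. The pathway list's median was -0.0074 to 0.0936 then, and 0.056 by limma on log2(FPKM + 0.1); 0 to 1 of its genes was called (Paip2, -0.92, adjusted p 0.0265 without replicate 2 labelled WT). With the replicate number as a block, 123 genes and 1 member were called (Eif5, 1.06, adjusted p 0.00872), and the pathway list stayed at 0; the deviations of same-numbered libraries correlated at -0.168. With the pairing crossed, 12 genes and 1 member were called.

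Over the 47 members tested, the number with a positive value ran from 28 to 37 under these alternatives, against 33. Of the 43 genes recomputed singly, the sign turned for 8, all of them members that were not called. Eif4e2 was 0.0029 with RLE factors and DESeq2 and 0.0058 in both limma fits, and ran from -0.1801 to 0.1547 with 1 library left out. Eif5a was 0.0067 with RLE factors and DESeq2, 0.0013 with the replicate block and 0.0198 in both limma fits, and ran from -0.0922 to 0.1002. With 1 library left out, Eif1 ran from -0.0631 to 0.3571, Eif2b5 from -0.0309 to 0.1778, Eif3b from -0.0100 to 0.1915 and Eif4a3 from -0.0264 to 0.209, each lowest without replicate 1 labelled WT. Eif2s3y ran from -0.1301 (without replicate 2 labelled KO) to 0.3079 and Eif4b from -0.1081 to 0.0468. Of 473 gene values recomputed, 449 kept their direction and side of the threshold. Paralogue shares per kilobase of merged exons in place of FPKM moved through the lengths: Eif1b from 38.0% to 31.5%, Eif1ax 49.1% to 47.2%, Eif2s3y 17.3% to 21.5%, Eif3j2 46.9% to 46.1%, Eif4a2 17.6% to 22.9%, Eif4e3 10.4% to 8.99%, Eif4g2 48.4% to 42.9%, Eif4g3 5.76% to 4.93% and Eif5a2 0.736% to 0.383%. Pseudogene copies were left out of these shares on both scales. For Eif1, Eif2s3x, Eif4a1 and Eif4e the copies held more than 10% of the parent's count.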

Other observations

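The members' differences went with transcript length. Across the 47 members the log2 fold change and the length of the longest annotated transcript had a Spearman correlation of 0.35, a description across genes that share the same 4 libraries, and across 13506 genes it was 0.22. Members longer than 2945 bases had a median log2 fold change of 0.19 (17 of 23 positive), and shorter ones 0.08 (16 of 24 positive). Over all genes the same split gave 0.04 (3858 of 6827 positive) for the longer and -0.07 (2641 of 6679 positive) for the shorter, a gap of similar size. The same measure between replicates of 1 label was -0.38 for the pair labelled WT (replicate 2 minus replicate 1) and 0.44 for the pair labelled KO. Between labels it ran from -0.01 to 0.60, so pairs within a label differed along length about as much as pairs across labels. The part of length in the members' median was not tested.

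The length used for the deposited FPKM was longer than the gene's own genomic span for Eif1, Eif4a1, Eif4a2 and Eif5. For Eif5 it was 19005 bases, against a span of 8737 and merged exons of 6820. Its FPKM were 9.75 and 10.8 (labelled WT) and 21.98 and 21.3 (labelled KO). By mean FPKM it ranked 36th of the 48 members, and by CPM per kilobase of merged exons 26th.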
